A study of Homo sapiens with 89 samples.

Results

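The genes described here make cholesterol, control that synthesis or move sterols inside the cell. A list of 28 such genes was matched by gene symbol to the rows of the deposited count tables, and all 28 were found among 57905 genes in each table. They comprise 19 enzymes of sterol synthesis, 4 genes that control the transcription factor SREBP, 3 sterol carriers and 2 fatty acid desaturases. All 28 passed the filter on low counts in both tables, where 17103 genes were tested in IMR-32 and 14923 in SHEP.

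Polyadenylated RNA was sequenced in human neuroblastoma cell lines. IMR-32 cells carry a doxycycline-inducible short hairpin RNA (shRNA) against EXOSC10, which trims RNA from its 3′ end in the nuclear exosome. The control group of 3 libraries had no doxycycline, and the depleted group of 3 had 1 µg/ml. SHEP cells carry inducible MYCN, a transcription factor of the MYC family, and formed 3 groups of 3 libraries: without MYCN and without doxycycline, with wild type MYCN, and with the 3A form, which the labels give as a triple mutant that lacks RNA binding. Both MYCN groups had 1 µg/ml doxycycline. The controls of both lines lacked the agent, so an effect of doxycycline and one of the shRNA or of MYCN cannot be told apart in any comparison with them. The comparison of wild type with 3A does not have that difference, but the amount of each form is not known from these counts. Per the labels, the cells grew in medium with bovine serum, which carries lipoproteins. The labels do not say whether replicates came from separate cultures, so every p measures the spread between these libraries, which may be technical. In bulk RNA, fewer cells of a type and less RNA per cell cannot be told apart.

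Libraries held 16394148 to 26193478 counts in IMR-32 and 11638859 to 15353505 in SHEP, and no member was below 3.53 counts per 1000000 counts (CPM) in any library. EXOSC10 checks the IMR-32 labels: it stood at 74.6, 63.9 and 67.0 in control and 49.0, 46.6 and 46.1 CPM in depleted libraries. MYCN gives no such check in SHEP. Its row held 4, 0 and 0 counts without MYCN, 2, 0 and 0 with wild type and 10, 0 and 0 with 3A, so the SHEP groups are called here by their labels alone, and "wild type", "3A" and "without MYCN" below mean the libraries labelled so. Which MYCN sequence the constructs carry is not given in the sources used here. Why the row is nearly empty was not tested. Adrenergic neuroblastoma markers were all detected in IMR-32, with summed levels of 3077 to 3317 CPM in controls. In SHEP these markers summed to 69.9 to 87.5 CPM, with DBH and TH at 0 in every library, while mesenchymal markers summed to 5803 to 7116 CPM. Leukocyte, epithelial and endothelial markers each summed to under 17 CPM in every library of both lines.

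Cholesterol is built from acetyl-CoA through mevalonate to farnesyl diphosphate, then through squalene and lanosterol to the finished sterol. Its genes share a feedback loop: when membrane sterol is scarce, SCAP escorts SREBP-2, the product of SREBF2, from the endoplasmic reticulum to the Golgi, where proteases release the part that activates sterol genes, and when sterol is plentiful the INSIG proteins hold SCAP back. Cholesterol that enters with lipoproteins leaves the lysosome through NPC2 and NPC1, so synthesis and uptake feed the same pool.

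The level of a member is given below in CPM scaled between the libraries of a table by the trimmed mean of M values (TMM). Levels of different genes are compared per kilobase (kb) of exon. In IMR-32 controls the order on that scale ran from FDPS, the farnesyl diphosphate synthase, at 137 ± 6.72 CPM per kb (SD, n = 3), through FADS2 at 110.0 ± 4.71 and SREBF2 at 108 ± 8.34, whose ranges overlapped, to MVK, the mevalonate kinase, at 4.52 ± 0.425. The median member stood at 29.9 CPM per kb in IMR-32 controls and 6.18 in SHEP without MYCN. In SHEP the kinase gene PMVK (51.5 ± 8.36) and FDPS (51.5 ± 2.44) led with overlapping ranges, and HSD17B7 was lowest at 1.30 ± 0.203. Of the 27 pairs of neighbours in the order, 11 had overlapping ranges in IMR-32 controls and 20 in SHEP without MYCN, so the SHEP order is mostly not resolved by 3 libraries.

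Side by side, the ratio between the lines varied from gene to gene. Every IMR-32 control library was above every SHEP library without MYCN for 23 members, below it for NPC2 and PMVK, and overlapped for NSDHL, IDI1 and MVK. The share of all genes separated in this way was not computed, so these counts cannot be read as particular to sterol genes. The ratio of IMR-32 to SHEP was 44.2 for FADS2, 21.8 for SREBF2, 15.4 for INSIG1 and 15.1 for DHCR7, but 0.439 for NPC2, the soluble lysosomal sterol carrier. These tables were normalized separately, the cell line and the table cannot be told apart, and no test was made.

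**Figure D1:**
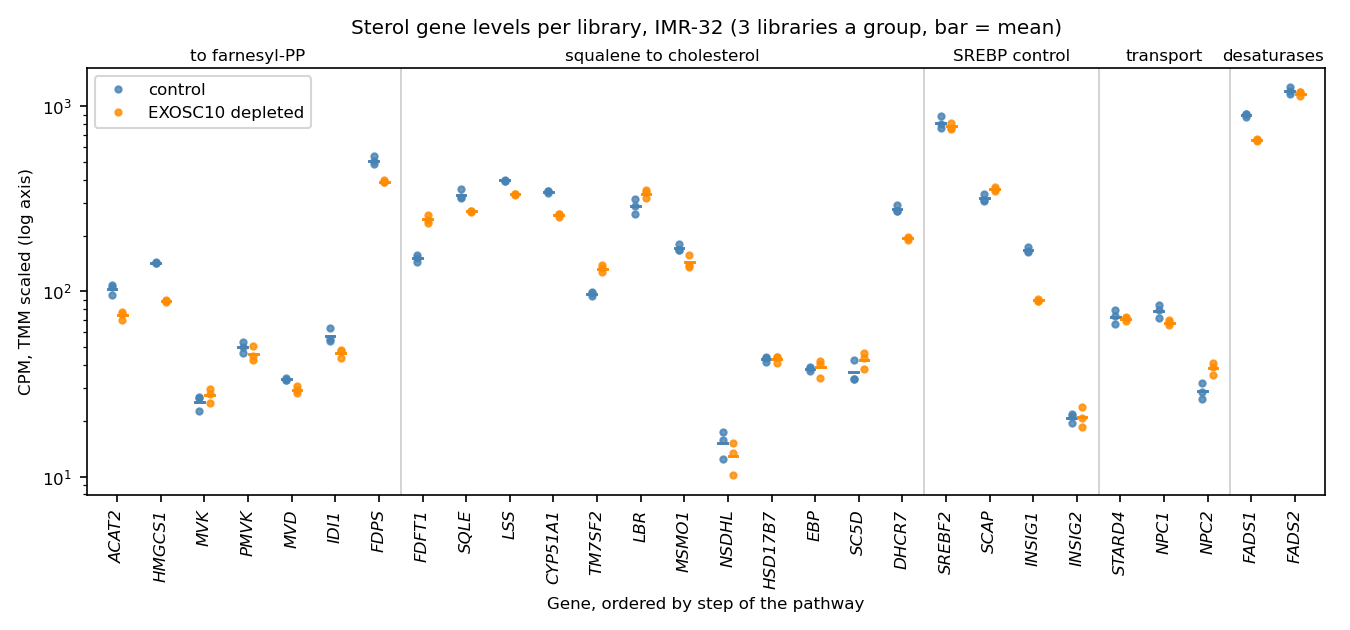
Level of each of the 28 genes in every IMR-32 library, in CPM after TMM scaling on a log axis, with control and EXOSC10-depleted libraries as points and the mean of 3 as a bar. INSIG1, HMGCS1 and FADS1 show depleted libraries clear below controls, and FDFT1 and TM7SF2 show them clear above.

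Depletion of EXOSC10 in IMR-32 was compared with control to ask how loss of this exonuclease alters messenger RNA levels. Sterol genes moved in both directions, with more of them down. INSIG1 and HMGCS1 fell most, while FDFT1, which encodes squalene synthase, rose most. Tests used edgeR's quasi-likelihood F test with Benjamini-Hochberg adjustment over all tested genes, and a gene is called here at an adjusted p under 0.05. Of the 28 members 12 fell, 6 rose and 10 were not called, where 27.1% of all tested genes were called, 13.7% downward and 13.5% upward. Group ranges were disjoint for 18 members, against 38.4% of all genes. The median log2 fold change of the members was -0.15, beside -0.00 over all genes.

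The front of the pathway, from acetyl-CoA to farnesyl diphosphate, held 4 falls and no rise among 7 genes. Summed over these 7, the level was 890.0 to 949 CPM in controls and 701 to 705 CPM after depletion. HMGCS1 (chr5:43289497-43313614, minus strand, hg19) encodes the synthase that joins acetoacetyl-CoA and acetyl-CoA. It was measured at 143, 145 and 141 CPM in control and 87.2, 89.7 and 88.6 CPM in depleted libraries. Control libraries differed little among themselves, and all 3 depleted libraries lay well below them. The log2 fold change of HMGCS1 was -0.69 (SE 0.06 and adjusted p = 3.16e-16). ACAT2 makes the acetoacetyl-CoA that this synthase uses. Its levels were 105, 95.0 and 108 CPM in control and 70.3, 75.8 and 77.0 CPM in depleted libraries. No depleted library reached the lowest control, and the log2 fold change was -0.46 (SE 0.07 and adjusted p = 2.41e-08). Of the 4374 exon bases of ACAT2, 1866 are shared with ENSG00000112096 and 454 with TCP1 on the opposite strand, and since no strand setting is given for the IMR-32 counts, reads of these genes may enter its count there. FDPS fell from 504, 535 and 485 to 398, 388 and 388 CPM, again with no overlap, by a log2 fold change of -0.38 (SE 0.04 and adjusted p = 8.94e-11). The isomerase gene IDI1 fell by 0.31 on the log2 scale. The remaining genes of this stretch, MVK, PMVK and MVD, were not called, with log2 fold changes of 0.12, -0.12 and -0.19. MVD, the last enzyme before the isomerase, had depleted libraries (28.1 to 30.9 CPM) below all controls (33.3 to 33.9 CPM) but an adjusted p of 0.134.

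From squalene to cholesterol, 5 of 12 genes fell, 4 rose and 3 were not called, so no single direction held. FDFT1 turns farnesyl diphosphate into squalene and thus commits it to sterols. Its level was 151, 158 and 143 CPM in control and 234, 258 and 243 CPM in depleted libraries. The groups were far apart, with depleted libraries the higher. Its log2 fold change was 0.70 (SE 0.05 and adjusted p = 1.08e-18). SQLE, which oxidizes squalene and comes next in the pathway, went the other way, from 323, 317 and 355 to 269.7, 269.8 and 271 CPM. Depleted libraries were nearly equal to each other and all below control, with a log2 fold change of -0.30 (SE 0.05 and adjusted p = 4.64e-07). LSS, the cyclase that closes the sterol rings, fell by 0.25, the lanosterol demethylase CYP51A1 by 0.42 and the methylsterol oxidase MSMO1 by 0.26 on the log2 scale. CYP51A1 is uncertain as a single gene: 3211 of its 4074 exon bases also belong to LRRD1 on the same strand, and the SHEP header states that such reads counted for both. In IMR-32 LRRD1 held 35203 counts and CYP51A1 37732.

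Near the end of the pathway stands DHCR7, a reductase of a final step. It was measured at 270.2, 273 and 293 CPM in control and 189.7, 196 and 194 CPM in depleted libraries. Every depleted library was under every control, and the log2 fold change was -0.53 (SE 0.05 and adjusted p = 1.64e-14). TM7SF2 and LBR encode sterol reductases with the same activity, and both rose. TM7SF2 (chr11:64879317-64883856, plus strand, hg19) went from 98.8, 94.2 and 98.5 to 138, 134 and 127 CPM. The depleted libraries were all higher, with a log2 fold change of 0.45 (SE 0.06 and adjusted p = 3.26e-09). LBR, which is also a protein of the inner nuclear membrane, rose by 0.23 on the log2 scale. SC5D, a late desaturase of the sterol ring, was called at a log2 fold change of 0.23 (SE 0.09 and adjusted p = 0.04999), just under the threshold and with ranges that overlapped. NSDHL, HSD17B7 and EBP, further enzymes of this stretch, were not called, at -0.22, -0.00 and 0.03. HSD17B7 has copies named as pseudogenes whose counts came to 33.5% of its own in IMR-32 and 16.2% in SHEP, so reads may be split between them.

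Among the genes of SREBP control, INSIG1 stood out by size. INSIG1 (chr7:155089486-155101945, plus strand, hg19) is itself a target of SREBP and restrains it. Its level was 162, 166 and 173 CPM in control and 88.7, 88.5 and 90.5 CPM in depleted libraries, so all depleted libraries lay far below all controls. The log2 fold change of -0.90 (SE 0.06 and adjusted p = 3.96e-22) was the largest in size among the 28 members. SCAP, the escort of SREBP, rose by 0.16 on the log2 scale. SREBF2 was not called (884, 762 and 800.0 CPM in control, 814, 756 and 761 CPM after depletion). INSIG2, the second member of the INSIG family, was not called either, with a log2 fold change of 0.01 (SE 0.11).

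The lysosomal carriers, which work in sequence, were called in opposite directions. NPC2 was at 31.9, 26.3 and 28.6 CPM in control and 35.3, 40.9 and 39.0 CPM in depleted libraries. Its groups did not overlap, and it rose by a log2 fold change of 0.41 (SE 0.09 and adjusted p = 4.44e-04). NPC1, the membrane protein that receives cholesterol from NPC2, was at 79.6, 71.6 and 84.1 CPM in control and 70.0, 65.5 and 67.9 CPM in depleted libraries. NPC1 shares 579 exon bases with RMC1 on the opposite strand, with the same limit as for ACAT2. The depleted libraries lay just under the lowest control, and the log2 fold change was -0.21 (SE 0.07 and adjusted p = 0.0172). STARD4, which carries sterol between membranes, was not called (-0.04). FADS1 and FADS2 encode the desaturases of polyunsaturated fatty acid synthesis and are known SREBP targets. FADS1 went from 909, 874 and 912 to 661, 658 and 644 CPM. All depleted libraries were below all controls, with a log2 fold change of -0.46 (SE 0.04 and adjusted p = 1.69e-15). Its neighbour FADS2, on the opposite strand with 490 shared exon bases, was not called: 1264, 1161 and 1213 CPM in control and 1190.5, 1128 and 1186 CPM after depletion.

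**Figure D2:**
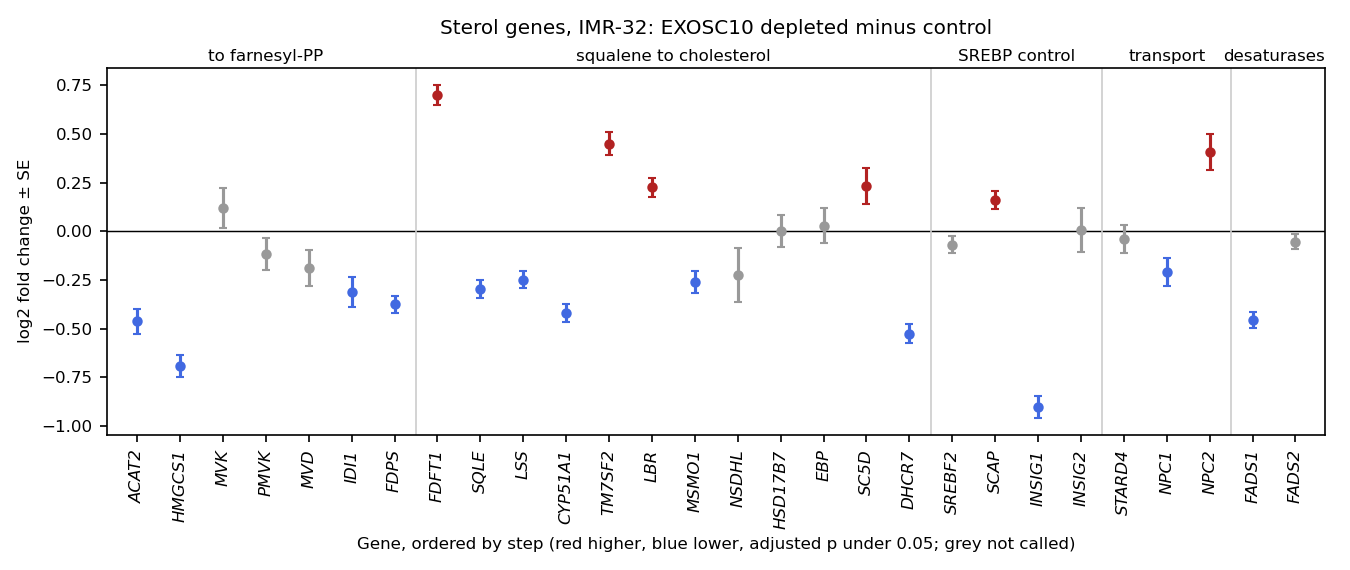
Log2 fold change of each gene on EXOSC10 depletion against control in IMR-32, with its SE, in pathway order and coloured by call. The front of the pathway holds falls and no rise, while the squalene to cholesterol stretch holds FDFT1 and TM7SF2 above 0 beside DHCR7 and CYP51A1 below it.

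Neighbouring lists give the setting of these changes. Of 14 tested fatty acid and lipid genes known as SREBP targets, 4 fell and 4 rose. MID1IP1, a regulator of fatty acid synthesis, fell most (log2 fold change -0.67, SE 0.08 and adjusted p = 2.83e-11), and TMEM97, a sterol-responsive membrane protein, rose most (log2 fold change 0.31, SE 0.12 and adjusted p = 0.0451). Of 10 genes of SREBP processing and sterol-dependent degradation 1 rose, the ubiquitin ligase gene RNF139 (0.34), and 0 fell. Among 18 tested genes of sterol efflux, esterification and transport 5 rose and 1 fell. ABCA1, a cholesterol exporter, had the largest rise, but stood at only 0.583, 0.294 and 0.0951 CPM in control and 0.979, 1.81 and 1.14 CPM in depleted libraries. VLDLR, a lipoprotein receptor, was the fall (-0.40). In the nonsterol branches of the mevalonate pathway, which draw on farnesyl diphosphate for ubiquinone, dolichol and protein prenylation, 1 of 14 rose (DHDDS, 0.36) and 1 fell (COQ2, -0.62).

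The adrenergic markers fell as well. Their summed level was 3077 to 3317 CPM in control and 1810 to 1869 CPM in depleted libraries, with 7 of 8 lower and 1 higher. Mesenchymal markers summed to 603 to 636 and 791 to 822 CPM, with 2 of 6 tested higher and 1 lower. PRRX1 was at 0 after depletion, but it did not pass the filter on low counts in IMR-32, so no loss can be read from it. MYCN also fell, from 1088, 1086 and 1113 to 596, 594 and 604 CPM. What part these shifts have in the sterol gene result was not tested. Of the 18 calls 16 held under each of the 10 alternatives. The call of SC5D was lost without control replicate 1 or 2 or depleted replicate 1 or 3 (adjusted p = 0.125 to 0.316), without the filter (0.0518) and with DESeq2 (0.124), and that of NPC1 without control replicate 3 (0.125) or depleted replicate 2 (0.0838) or 3 (0.0536). SREBF2 was called lower without control replicate 2 (0.0435).

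Promoter sequences are printed for INSIG1 and HMGCS1, which fell most on depletion, for FDPS, the most abundant member in IMR-32 controls, and for TM7SF2, which was called in every comparison below as well. SREBP binds sterol regulatory elements, the factor NF-Y binds CCAAT boxes beside them, and MYC family proteins bind the E-box. The sequences are from RefSeq on GRCh38.p14, a different build from the hg19 gene positions above, and 25 of the 28 members had an entry, FDFT1, SQLE and ACAT2 being without one. Each runs 300 bases 5′ to 3′ on the strand of the gene across its annotated start, and capitals mark matches on either strand to CACNCCAC (sterol regulatory element), CCAAT or CACGTG (E-box). The INSIG1 window is chr7:155297628-155297927 (plus), that of HMGCS1 chr5:43313363-43313662 (minus), that of FDPS chr1:155308616-155308915 (plus) and that of TM7SF2 chr11:65111622-65111921 (plus).
INSIG1: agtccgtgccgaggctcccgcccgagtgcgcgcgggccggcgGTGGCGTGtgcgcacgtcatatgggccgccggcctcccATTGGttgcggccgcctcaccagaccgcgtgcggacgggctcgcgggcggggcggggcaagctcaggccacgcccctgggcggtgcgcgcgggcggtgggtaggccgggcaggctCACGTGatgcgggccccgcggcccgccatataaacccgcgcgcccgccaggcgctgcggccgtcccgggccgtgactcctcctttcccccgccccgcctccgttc
HMGCS1: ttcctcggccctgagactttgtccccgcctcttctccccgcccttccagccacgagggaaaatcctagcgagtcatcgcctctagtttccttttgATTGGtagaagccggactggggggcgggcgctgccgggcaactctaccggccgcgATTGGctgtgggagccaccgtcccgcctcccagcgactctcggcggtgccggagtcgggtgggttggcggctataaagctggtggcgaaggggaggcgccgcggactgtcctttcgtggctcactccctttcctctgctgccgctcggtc
FDPS: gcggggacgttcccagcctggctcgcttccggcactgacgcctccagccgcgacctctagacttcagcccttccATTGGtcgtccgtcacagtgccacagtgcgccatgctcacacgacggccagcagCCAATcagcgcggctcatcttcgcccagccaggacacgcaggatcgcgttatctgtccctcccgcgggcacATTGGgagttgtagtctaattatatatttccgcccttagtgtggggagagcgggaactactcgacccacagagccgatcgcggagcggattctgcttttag
TM7SF2: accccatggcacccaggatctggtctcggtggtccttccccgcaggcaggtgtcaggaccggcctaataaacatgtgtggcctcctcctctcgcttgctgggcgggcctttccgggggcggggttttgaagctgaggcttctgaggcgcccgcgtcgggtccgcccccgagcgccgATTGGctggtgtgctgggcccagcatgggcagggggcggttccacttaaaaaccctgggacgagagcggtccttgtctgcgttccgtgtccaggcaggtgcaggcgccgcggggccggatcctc
INSIG1 holds all 3 motifs, with the element match beginning 208 bases, the CCAAT match 170 bases and the E-box 55 bases before the start. HMGCS1 holds CCAAT matches at 155 and 100 bases before its start. FDPS has them at 176, 122 and 51 bases, and TM7SF2 has 1 at 74 bases. No match in these windows overlapped another. Matches are letters only and say nothing of binding.

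CCAAT matched in 16 of the 25 member promoters, or 64%, against 34.6% of 35116 RefSeq promoters of the same length. For members only the first listed promoter of a gene was used, while the 35116 were all those listed at that length. The sterol element letters matched in 3 (INSIG1, SC5D and SREBF2), or 12%, against 5.87% of all promoters. CACGTG matched in 4 (SCAP, INSIG1, SC5D and LSS), or 16%, against 7.26%. These shares are descriptions of a list chosen by function and with earlier results of these data known. The CCAAT letters did not follow the direction on EXOSC10 depletion: they were present in 6 of 10 genes that fell, 3 of 5 that rose and 7 of 10 that were not called. NSDHL and MVK had 5 CCAAT matches each, and PMVK, IDI1, CYP51A1, LBR, INSIG2, NPC1, FADS1 and FADS2 had no match to any of the motifs in this window.

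**Figure D3:**
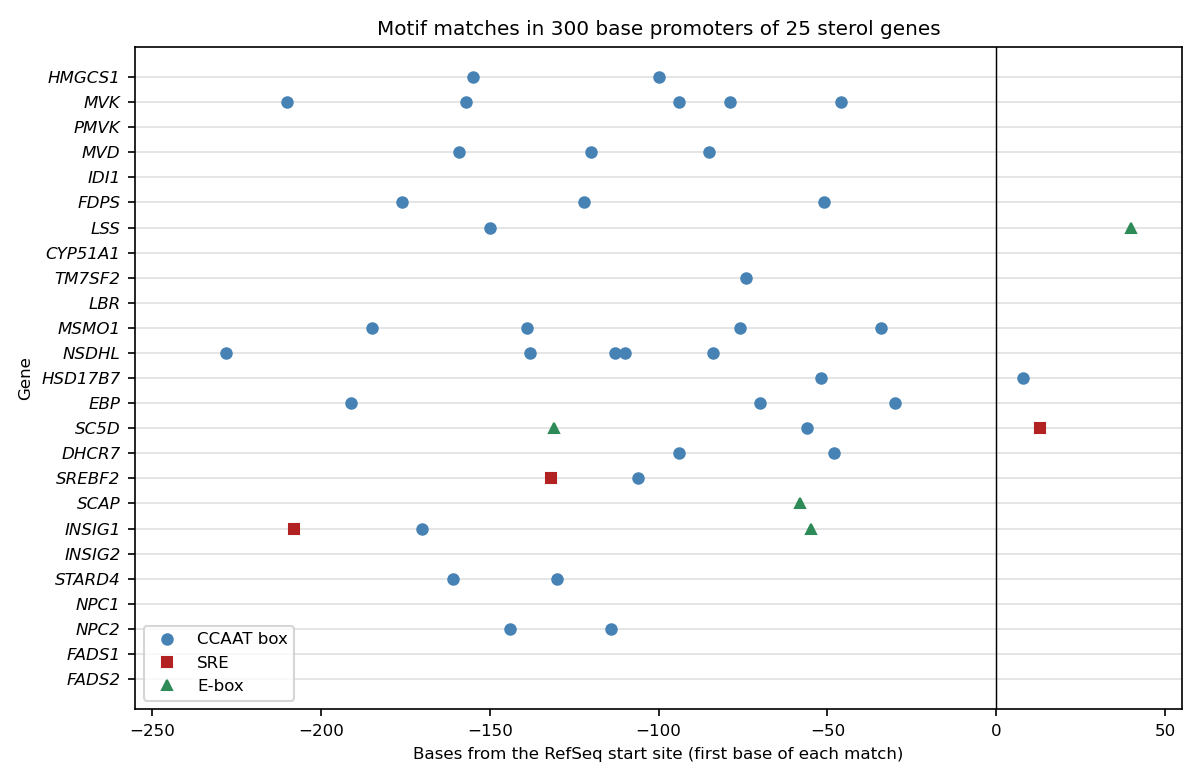
Position of each motif match relative to the RefSeq start in 25 member promoters, in bases, with 1 line a gene and 1 symbol a motif. CCAAT matches lie mostly within 200 bases before the start and occur in 16 of the 25 lines, while sterol element and E-box matches are few.

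In SHEP, libraries labelled wild type MYCN were compared with those labelled as lacking it, to ask what MYCN alters in a line without amplified MYCN. Few sterol genes moved, and those that moved went both ways. TM7SF2 and ACAT2 fell most, NPC2 and NPC1 moved against each other, and both desaturases rose. Of 28 members 4 rose, 4 fell and 20 were not called, where 22.2% of all tested genes were called, 10.9% upward and 11.3% downward. A share of 8 in 28 is near that background. The members' median log2 fold change was -0.00, equal to that of all genes at 2 decimals, and ranges did not overlap for 12 members, against 37.5% of all genes.

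At the front of the pathway ACAT2 was at 26.4, 31.1 and 35.7 CPM without MYCN and 13.6, 12.7 and 17.9 CPM with wild type. No wild type library reached the lowest library without MYCN. The log2 fold change was -1.07 (SE 0.15 and adjusted p = 2.10e-05). IDI1 went from 47.5, 48.8 and 54.4 to 37.8, 36.1 and 39.1 CPM. Its wild type libraries were all lower, with a log2 fold change of -0.42 (SE 0.11 and adjusted p = 0.00674). HMGCS1, MVK, PMVK, MVD and FDPS were not called. FDPS, the most abundant of them per length beside PMVK, differed by 0.01 (SE 0.08).

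Past squalene 1 of 12 genes rose and 1 fell. TM7SF2 was at 11.3, 13.9 and 16.6 CPM without MYCN and 3.53, 3.72 and 6.70 CPM with wild type MYCN. Wild type libraries were all below, with replicate 3 the nearest to the other group. The log2 fold change of -1.58 (SE 0.23 and adjusted p = 2.76e-05) was the largest in size among the members. TM7SF2 shares 16 exon bases with VPS51 on the same strand. Over the SHEP libraries VPS51 held 11949 counts and TM7SF2 1078. Reads that touch these bases counted for both, so part of the TM7SF2 count in every SHEP comparison may come from VPS51. In IMR-32 VPS51 held 7279 counts and TM7SF2 14403. The counting settings there are not given, so the same limit may apply to the rise of TM7SF2 on depletion. SQLE rose from 47.0, 36.5 and 48.9 to 58.1, 54.1 and 54.4 CPM. Its lowest wild type library lay above the highest without MYCN, and the log2 fold change was 0.33 (SE 0.12 and adjusted p = 0.0476). The other 10 genes of this stretch, FDFT1, LSS, CYP51A1, LBR, MSMO1, NSDHL, HSD17B7, EBP, SC5D and DHCR7, were not called. Of these DHCR7 came nearest, with 17.3 to 19.8 against 13.8 to 15.2 CPM and -0.35 (SE 0.14 and adjusted p = 0.0711).

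None of SREBF2, SCAP, INSIG1 and INSIG2 was called with wild type MYCN, and their log2 fold changes lay between -0.03 and 0.13, with SEs of 0.0985 to 0.190. INSIG1, the largest change on depletion in IMR-32, stood here at 13.6, 11.1 and 7.91 CPM without MYCN and 12.6, 12.5 and 9.73 CPM with it, with overlapping ranges. The lysosomal pair was called. NPC1 (chr18:21086148-21166862, minus strand, hg19) was at 36.4, 33.2 and 34.0 CPM without MYCN and 59.7, 48.8 and 44.5 CPM with wild type. All wild type libraries were higher, by a log2 fold change of 0.56 (SE 0.12 and adjusted p = 0.00176). NPC2 (chr14:74942895-74960880, minus strand, hg19) was at 64.1, 67.9 and 65.8 CPM without MYCN and 36.0, 45.4 and 45.0 CPM with wild type. Here all wild type libraries were lower, with -0.65 (SE 0.10 and adjusted p = 7.78e-05). FADS2 rose from 25.3, 26.6 and 30.4 to 38.5, 36.9 and 32.5 CPM. The groups did not overlap, and the log2 fold change was 0.39 (SE 0.13 and adjusted p = 0.0314). FADS2 shares 49 exon bases with FEN1 on the same strand. Over the SHEP libraries FEN1 held 42618 counts and FADS2 3665. Reads in the shared bases counted for both, so part of the FADS2 count in every SHEP comparison may come from FEN1. FADS1 rose from 89.2, 92.9 and 91.7 to 129, 111 and 106 CPM, also without overlap, with 0.34 (SE 0.10 and adjusted p = 0.0192). STARD4 was not called (-0.28).

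**Figure D4:**
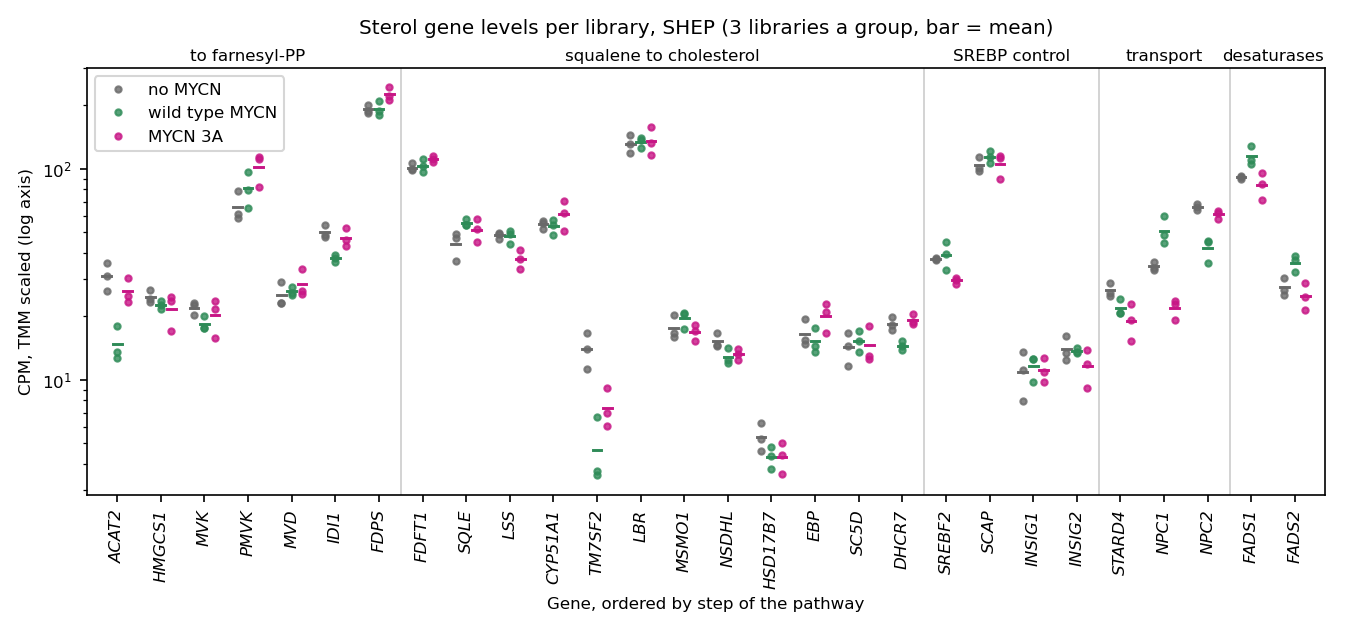
Level of each of the 28 genes in every SHEP library, in CPM after TMM scaling on a log axis, with the groups as coloured points and the mean of 3 as a bar. ACAT2 shows wild type libraries below both other groups, TM7SF2 shows them below those without MYCN but overlapping 3A, and NPC1 shows wild type highest and 3A lowest with no overlap between the 3 groups.

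Related lists with wild type MYCN were as follows. Of 10 genes of SREBP processing and sterol-dependent degradation 3 rose and 1 fell. UBE2G2, a ubiquitin-conjugating enzyme, rose most (log2 fold change 0.71, SE 0.16 and adjusted p = 0.00229), and MBTPS2, a protease that releases SREBP, was the fall (-0.38). Of 14 fatty acid and lipid genes 1 rose, the elongase ELOVL6 (0.62), and 3 fell, PCYT2 of phospholipid synthesis most (-0.59). Of 14 genes of the nonsterol branches 1 rose and 3 fell (RABGGTA most, -0.50). Of 15 tested genes of efflux, esterification and transport 3 rose, led by the lipoprotein receptor SCARB1 (log2 fold change 0.78, SE 0.10 and adjusted p = 6.03e-06), and the receptor LRP1 fell (-0.65).

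Of the 8 member calls 4 held under each of the 14 alternatives, those of TM7SF2, ACAT2, NPC1 and NPC2. With library totals in place of TMM, SQLE (adjusted p = 0.140), FADS1 (0.0711) and FADS2 (0.0800) were not called, and the calls over all genes went from 1634 up and 1681 down to 1163 up and 2147 down. The rise of SQLE was also lost without replicate 1 or 2 of the libraries lacking MYCN, any wild type replicate or 3A replicate 2 (0.0512 to 0.285). FADS2 lost its call without replicate 1 or 2 lacking MYCN or wild type replicate 1 or 2 (0.0784 to 0.130), FADS1 without any replicate lacking MYCN or wild type replicate 1 (0.0548 to 0.0816), and IDI1 without wild type replicate 2 (0.0573). Among settings other than a replicate block, PMVK was called higher without replicate 3 lacking MYCN (0.0456) or wild type replicate 1 (0.0197) and without the filter (0.0353). DHCR7 was called lower with library totals (0.0302).

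Libraries labelled MYCN 3A were set against the same 3 libraries without MYCN, so this comparison shares its controls with the previous one. Sterol genes again moved in few cases: TM7SF2 and NPC1 fell most, and PMVK rose most. Of 28 members 5 fell, 2 rose and 21 were not called, where 25.5% of all tested genes were called, 12.8% downward and 12.7% upward. The members called are 7 of 28, a share near that of all genes. The median log2 fold change of the members was -0.10, beside -0.04 over all genes, and 10 had ranges that did not overlap, against 41.3% of all genes.

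PMVK, the phosphomevalonate kinase, was at 58.5, 61.2 and 78.2 CPM without MYCN and 81.9, 111 and 114 CPM with 3A. All 3A libraries were higher, replicate 1 by the least, and the log2 fold change was 0.63 (SE 0.14 and adjusted p = 0.00187). FDPS went from 184, 189 and 202 to 213, 221 and 244 CPM. The ranges did not overlap, with 0.24 (SE 0.08 and adjusted p = 0.0389). ACAT2, which fell with wild type, was not called with 3A (25.0, 30.6 and 23.4 CPM, log2 fold change -0.24). The other genes up to farnesyl diphosphate, HMGCS1, MVK, MVD and IDI1, were not called.

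TM7SF2 was at 11.3, 13.9 and 16.6 CPM without MYCN and 7.002, 6.06 and 9.13 CPM with 3A. The groups did not overlap, and the log2 fold change was -0.91 (SE 0.22 and adjusted p = 0.00504). It is the one member lower with both MYCN forms than without MYCN. LSS was at 46.5, 49.6 and 49.2 CPM without MYCN and 33.7, 41.4 and 37.6 CPM with 3A. Every 3A library was lower, with a log2 fold change of -0.37 (SE 0.11 and adjusted p = 0.0151). The remaining 10 genes from squalene on were not called.

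SREBF2 (chr22:42229109-42303312, plus strand, hg19) was at 36.9, 37.6 and 37.7 CPM without MYCN and 28.6, 30.6 and 29.8 CPM with 3A. Libraries within each group were close together and the 3A group was lower, with -0.33 (SE 0.12 and adjusted p = 0.0410). SCAP, INSIG1 and INSIG2 were not called. NPC1 was at 23.0, 19.2 and 23.8 CPM with 3A, below the 33.2 to 36.4 CPM of the libraries without MYCN. Its log2 fold change was -0.65 (SE 0.13 and adjusted p = 8.99e-04), opposite in sign to that with wild type. STARD4 was at 28.8, 25.1 and 25.7 CPM without MYCN and 22.9, 19.1 and 15.3 CPM with 3A. All 3A libraries were lower, with -0.47 (SE 0.15 and adjusted p = 0.0195). NPC2 (-0.11), FADS1 (-0.12) and FADS2 (-0.14) were not called.

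Of related genes with 3A, 1 of 10 in SREBP processing rose (SYVN1, a ubiquitin ligase, 0.30) and 1 fell (MBTPS2, -0.40). Among fatty acid and lipid genes 3 of 14 rose, led by SREBF1, which encodes the sister factor of SREBP-2 (log2 fold change 0.40, SE 0.10 and adjusted p = 0.00452), and ACLY, which makes cytosolic acetyl-CoA, fell (log2 fold change -0.65, SE 0.14 and adjusted p = 0.00153). Of 14 genes of the nonsterol branches 2 rose, FNTB of farnesyl transfer most (0.53), and 0 fell. Of 15 efflux, esterification and transport genes SCARB1 rose (0.75) and 4 fell, LRP1 most (-1.01). Mesenchymal markers summed to 6702 to 7116 CPM without MYCN, 6835 to 7018 with wild type and 5803 to 6157 with 3A, with 4 of 8 higher and 3 lower with wild type and 1 higher and 4 lower with 3A, and their part in the results was not tested.

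The calls of PMVK, TM7SF2 and NPC1 held under each of the 14 alternatives. With library totals FDPS was not called (adjusted p = 0.174), and the calls over all genes went from 1893 up and 1913 down to 1232 up and 2928 down. FDPS also lost its call without replicate 1 or 2 lacking MYCN or 3A replicate 2 or 3 (0.0766 to 0.160) and without the filter (0.0655). SREBF2 lost it without any replicate lacking MYCN, wild type replicate 2 or any 3A replicate (0.0767 to 0.103) and without the filter (0.0564). STARD4 lost it without replicate 1 lacking MYCN or 3A replicate 2 or 3 (0.0555 to 0.119), and LSS without replicate 2 lacking MYCN or 3A replicate 1 (0.0602 and 0.0655).

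The MYCN forms were then compared with each other, both under doxycycline, to ask which differences go with the residues changed in 3A. The MYCN row is nearly empty in both groups, so the amount of either form is not known. A difference in amount and one in residues cannot be told apart here. The largest difference among the members was in NPC1, higher with wild type, and the next in ACAT2, lower with wild type. Of 28 members 5 were higher with wild type, 6 lower and 17 not called, where 30.3% of all tested genes were called, 15.8% higher and 14.5% lower. The median difference of the members was -0.01 on the log2 scale, beside 0.00 over all genes, and 10 had ranges that did not overlap, against 40.4% of all genes. The libraries are those of the comparisons above, so these values restate the same levels.

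NPC1 was at 59.7, 48.8 and 44.5 CPM with wild type and 23.0, 19.2 and 23.8 CPM with 3A. The lowest wild type library was well above the highest 3A library, and libraries without MYCN lay between the forms. The log2 difference was 1.21 (SE 0.13 and adjusted p = 4.26e-07). ACAT2 was at 13.6, 12.7 and 17.9 CPM with wild type and 25.0, 30.6 and 23.4 CPM with 3A. All wild type libraries were lower, with -0.83 (SE 0.16 and adjusted p = 3.41e-04). NPC2 was at 36.0, 45.4 and 45.0 CPM with wild type and 62.9, 57.9 and 62.0 CPM with 3A. Wild type libraries were again the lower, with -0.53 (SE 0.10 and adjusted p = 5.29e-04). Thus both lysosomal carriers were called between the forms, in opposite directions.

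TM7SF2 was at 3.53, 3.72 and 6.70 CPM with wild type and 7.002, 6.06 and 9.13 CPM with 3A. Wild type replicate 3 lay inside the 3A range, so the groups overlapped, and the difference was -0.67 (SE 0.24 and adjusted p = 0.0389). FADS2 was at 38.5, 36.9 and 32.5 CPM with wild type and 21.4, 24.6 and 28.9 CPM with 3A. Wild type libraries were all higher, by 0.53 (SE 0.13 and adjusted p = 0.00398), with the limit from FEN1 given above. FADS1 was at 129, 111 and 106 CPM with wild type and 95.5, 71.4 and 84.8 CPM with 3A. Its wild type libraries were higher too, by 0.45 (SE 0.10 and adjusted p = 0.00181). SREBF2, which fell with 3A against no MYCN, was at 44.9, 39.5 and 33.3 CPM with wild type and 28.6, 30.6 and 29.8 CPM with 3A. All wild type libraries were higher, with 0.40 (SE 0.12 and adjusted p = 0.0128). LSS was higher with wild type too (0.36). FDPS was at 181, 189 and 209 CPM with wild type and 213, 221 and 244 CPM with 3A, a difference of -0.23 (SE 0.08 and adjusted p = 0.0426). DHCR7 and IDI1 were lower with wild type, at -0.41 and -0.33. The 17 members not called had differences of -0.41 to 0.23, EBP and PMVK being the farthest below 0 with adjusted p = 0.0576 and 0.0609.

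Between the forms 3 of 10 genes of SREBP processing were higher with wild type and 0 lower, UBE2G2 most (log2 fold change 1.12, SE 0.17 and adjusted p = 2.99e-05). Of 14 fatty acid and lipid genes 2 were higher, ELOVL6 and ACLY (both 0.57), and 2 lower, SREBF1 most (log2 fold change -0.74, SE 0.10 and adjusted p = 8.54e-06). Of the nonsterol branches 1 of 14 was higher (DHDDS, 0.34) and 2 were lower (FNTB most, -0.55). Of 15 efflux, esterification and transport genes 3 were higher and 0 lower, led by GRAMD1B, a sterol transfer protein (log2 fold change 1.43, SE 0.22 and adjusted p = 4.49e-05). EXOSC10 itself was at 105, 91.4 and 82.5 CPM with wild type and 62.5, 57.0 and 64.8 CPM with 3A, a difference of 0.60, beside 89.99, 83.6 and 69.4 CPM without MYCN, and its part in these results was not tested.

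Calls that held between the forms under each of the 14 alternatives were those of NPC1, ACAT2, NPC2, FADS1 and FADS2. With only the 6 libraries of the forms in the fit, TM7SF2, DHCR7, IDI1 and FDPS were not called (adjusted p = 0.0511 to 0.0863). FDPS lost its call without any replicate lacking MYCN, wild type replicate 1 or 2 or 3A replicate 2 or 3 (0.0538 to 0.171), with library totals (0.0516) and without the filter (0.0819), and TM7SF2 without replicate 2 lacking MYCN, wild type replicate 1 or 2 or 3A replicate 1 or 3 (0.0515 to 0.201). DHCR7 lost it without wild type replicate 1 or 2 or 3A replicate 3 (0.0741 to 0.0909) and without the filter (0.0653), LSS without wild type replicate 1 or 2 or 3A replicate 1 (0.0518 to 0.0711), IDI1 without wild type replicate 2 or 3A replicate 1 (0.0995 and 0.119) and SREBF2 without wild type replicate 1 (0.0810). Again leaving the block aside, PMVK was called lower without replicate 3 lacking MYCN, wild type replicate 3 or 3A replicate 1 (0.00568 to 0.0496) and without the filter (0.00856), EBP without wild type replicate 3 or 3A replicate 1 (0.0224 and 0.0223) and CYP51A1 without 3A replicate 3 (0.0447).

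**Figure D5:**
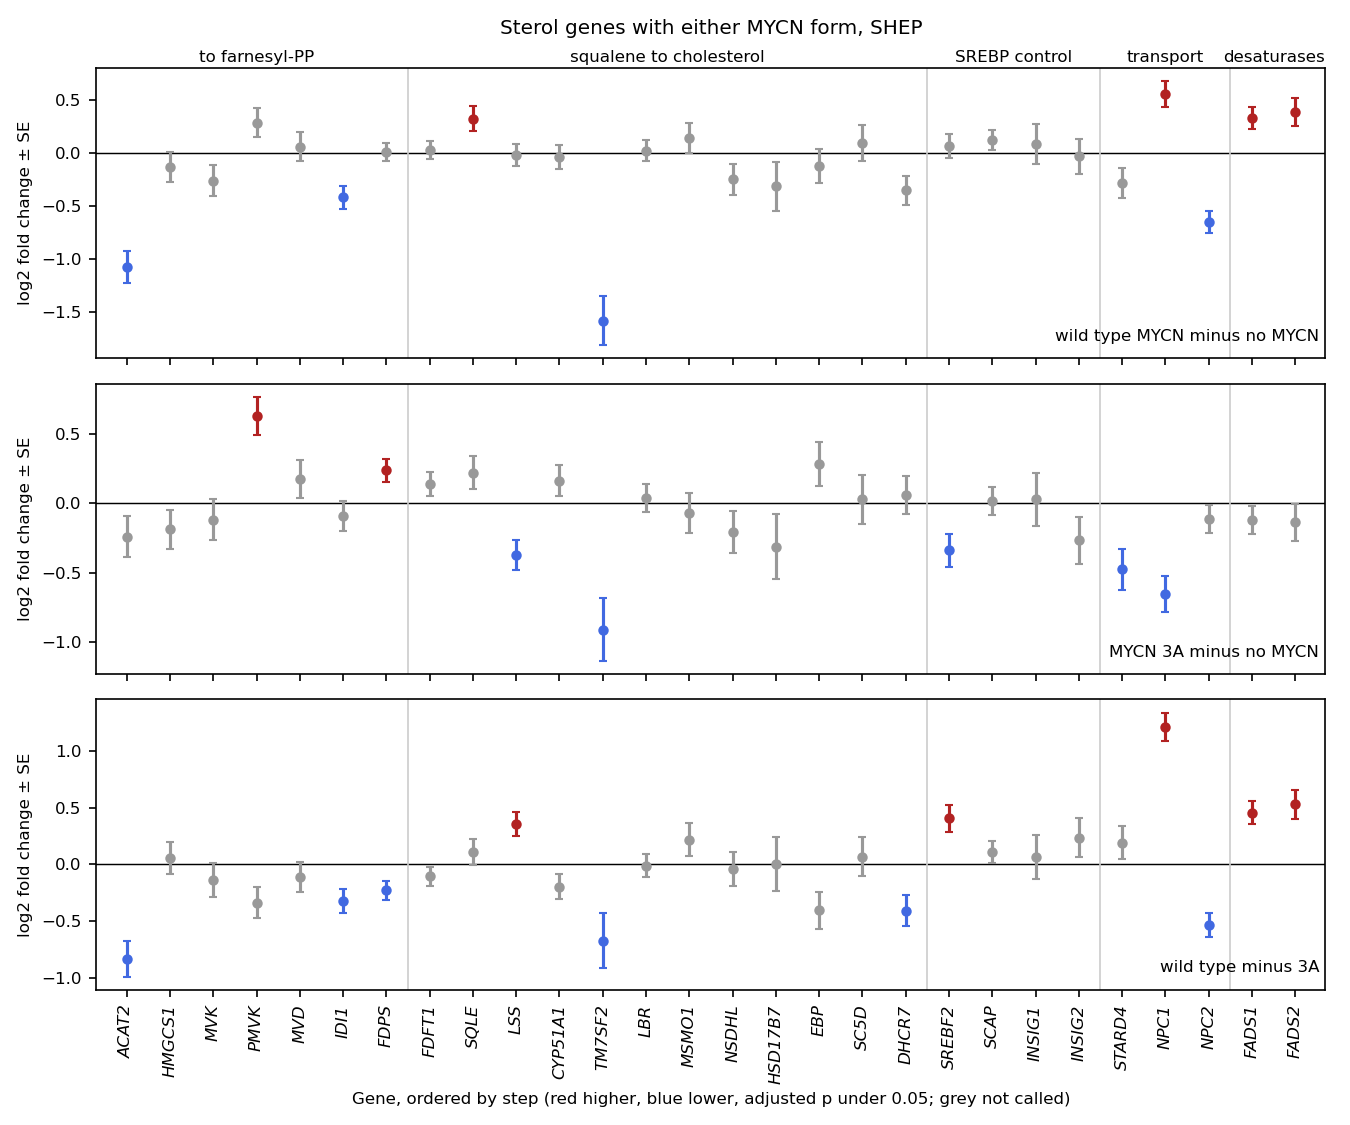
Log2 fold change with its SE for each gene in the SHEP comparisons: wild type MYCN minus no MYCN (top), 3A minus no MYCN (middle) and wild type minus 3A (bottom), coloured by call. NPC1 is above 0 in the top and bottom panels and below 0 in the middle panel, and TM7SF2 is below 0 in all 3.

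Set side by side, 22 of the 28 members were called in at least 1 of the 4 comparisons and 6 in none: EBP, HSD17B7, INSIG2, MVD, MVK and NSDHL. The share of all genes called in at least 1 was not computed, and the SHEP comparisons share libraries. The count of 22 is therefore no result about the members. FDFT1, LBR, SC5D and SCAP rose, and CYP51A1, HMGCS1, INSIG1 and MSMO1 fell, on depletion alone among the 4 comparisons, which is a count of calls and no test of a difference between lines. HMGCS1, for instance, was at 24.1, 23.4 and 26.5 CPM without MYCN, 22.6, 23.5 and 21.6 CPM with wild type and 23.5, 24.6 and 17.1 CPM with 3A, which overlapped. ACAT2 and IDI1 fell both on depletion (-0.46 and -0.31) and in libraries labelled wild type MYCN (-1.07 and -0.42).

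Several members were called in opposite directions. TM7SF2 and NPC2 rose on depletion (0.45 and 0.41) and fell in libraries labelled wild type MYCN (-1.58 and -0.65). SQLE, FADS1 and NPC1 fell on depletion (-0.30, -0.46 and -0.21) and rose with wild type (0.33, 0.34 and 0.56). FDPS fell on depletion (-0.38) and rose with 3A (0.24). LSS fell on depletion (log2 fold change -0.25, SE 0.04 and adjusted p = 5.27e-06, from 395, 400.3 and 396 to 336, 331 and 336 CPM with no overlap) and with 3A (-0.37). It was not called with wild type against no MYCN (-0.01). LSS stood higher in wild type against 3A (log2 fold change 0.36, SE 0.11 and adjusted p = 0.0161), which restates its lower level with 3A and is no separate rise. SREBF2 likewise was lower with 3A (-0.33), not called with wild type (0.07) and higher in wild type against 3A (0.40). Some of these calls did not hold under every alternative above. They were NPC1 on depletion, SQLE and FADS1 with wild type, FDPS, LSS and SREBF2 with 3A, and LSS and SREBF2 between the forms. Those of TM7SF2 and NPC2 on depletion and with wild type held under each. NPC1 and TM7SF2 were the members called in all 4 comparisons, though the call of TM7SF2 between the forms was lost under some alternatives. NPC1 alone moved in opposite directions with the MYCN forms. Summed over genes, the 19 sterol enzymes together stood at 868 to 932 CPM without MYCN, 839 to 907 with wild type and 948 to 987 with 3A, while in IMR-32 they stood at 3063 to 3158 CPM in control and 2717 to 2783 CPM after depletion.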

How the data were processed

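RNA from 15 libraries was analysed from 2 deposited tables of raw counts per gene. The deposited counts were made by the authors with STAR 2.7.10a on hg19 and featureCounts 2.0.3, per the submitters' processing notes; no step links a tool to a table there. Per the file headers, the SHEP counts used strand, Ensembl GRCh37 genes, properly paired reads and assignment to every overlapping gene. The settings behind the IMR-32 counts are not given in the sources used here. Low counts were mostly even (66.4% of counts of 1 to 10 in IMR-32, 76.3% in SHEP).

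Each table was fitted whole with edgeR 4.0.16 (R 4.3.3): filterByExpr, TMM factors, robust quasi-likelihood F test, two-sided, Benjamini-Hochberg adjustment over all tested genes, threshold 0.05. The 6 IMR-32 libraries formed one fit and the 9 SHEP libraries another, with no block. CPM are TMM-scaled, and levels per kb use the deposited exon length. Symbols come from a gene name table that matched 51996 IDs; ACACA and PECAM1 of the lists were not matched. Alternatives were DESeq2 1.42.0, library totals, no filter, a replicate block, each library left out and, in SHEP, only the 2 groups compared. The fits were run on simulated counts with a single spread for all genes of a table, which cannot show whether the calls given here are sound. Values and statistics were given for the 6 called members with the largest fold change in each comparison and for those called in opposite directions, and of each related list for the largest rise and fall. The 28 members, the related lists and the markers were chosen with earlier results of these data known. Replicate numbers were not taken as pairs, since the labels state no pairing. Same-numbered libraries correlated in their deviations from group means by 0.03 to 0.04 in IMR-32 and -0.03 to 0.14 in SHEP. Differently numbered libraries of different groups correlated by -0.03 to -0.01 in IMR-32 and -0.13 to 0.06 in SHEP. Whether the numbers mark a shared culture or batch was not tested. A gene of a related list is not reported here. Other assays of the series were not analysed here.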

Additional observations from a re-analysis of the deposited data

How the results depend on the processing

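With library totals in place of TMM factors, the members' median log2 fold change was -0.13 on EXOSC10 depletion, -0.069 with wild type MYCN, -0.20 with 3A and 0.028 for wild type against 3A. Totals moved the median of all genes by 0.02, -0.07, -0.10 and 0.03, and the counts of members higher went to 1 with wild type and 1 with 3A. Without the filter on low counts 1 member was higher with 3A. With only the 6 libraries of wild type and 3A fitted, 2 members were lower with wild type. The cause of these moves was not tested. DESeq2 called 5 members higher and 12 lower on depletion, 4 and 4 with wild type, 2 and 5 with 3A, and 5 and 6 between the forms.

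Leaving out each library in turn gave 3810 to 4386 genes called on depletion, 2313 to 3464 with wild type, 2166 to 4451 with 3A and 3261 to 4901 between the forms. Members higher numbered 5 to 6, 1 to 4, 1 to 2 and 3 to 5 in these comparisons, in that order, and members lower 11 to 13, 3 to 4, 3 to 5 and 2 to 8. The members' median lay between -0.17 and -0.12, -0.04 and 0.01, -0.13 and -0.055, and -0.065 and 0.016.

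A fit with a replicate block called 5251 genes on depletion, 4184 with wild type, 4794 with 3A and 5414 between the forms, and members higher and lower were 6 and 12, 5 and 5, 2 and 5, and 5 and 8. Beyond the calls without it, the block called PMVK higher (adjusted p = 0.0117, edgeR) and DHCR7 lower (0.0469) with wild type against no MYCN, and PMVK (0.00187) and EBP (0.0197) lower with wild type against 3A. The labels state no pairing behind these numbers, and the block is given as a setting only.

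Precision is limited by 3 libraries a group, by the lower depth of SHEP, and by the low levels there of TM7SF2 and HSD17B7.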
